A study of Caenorhabditis elegans with 30 samples.

Results

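Nematodes kept for 72h on plates with 100μM d4T were compared with nematodes kept for 72h on plates with 0.033% DMSO. d4T (stavudine) is a thymidine analogue given against HIV, and DMSO is the solvent from which it was added to the plates. The comparison takes 6 of the 30 RNAseq libraries of the series, 3 biological replicates of each group, chosen by their labels alone. In all groups L1 larvae were grown on the bacterial food OP50 to the L4 stage and moved to their exposure. The 72h cultures were put on fresh plates daily, and eggs and bacteria were removed with a mesh before whole nematodes were frozen. The 3 libraries of unexposed nematodes at 72h, which had neither d4T nor DMSO, are given beside them as the second control. d4T and DMSO libraries at 24h serve for the comparison of the times. Neither the strain of these cultures nor the number of nematodes per library is given in the sources used here.

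d4T lacks the sugar hydroxyl group to which the next nucleotide is joined, so that a DNA chain ends where the analogue is built in. The DNA polymerase of mitochondria can take up such analogues, for which they are known to harm mitochondria in patients. The mtDNA of nematodes encodes 12 subunits of the respiratory chain. All other subunits and the proteins of the mitochondrial ribosome are encoded in the nucleus, made on cytosolic ribosomes and imported.

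Total counts on genes were 23.7 to 25.7 M (mega) counts in the d4T libraries, 25.2 to 28.3 M in the DMSO libraries and 25.9 to 30.6 M in the unexposed libraries. Levels are CPM, a gene's counts scaled to a common library size with TMM factors, and every fold change is on the log2 scale of these levels. d4T, DMSO and unexposed libraries were each sequenced in a lane of their own, so that lane and exposure cannot be told apart. Ribosomal RNA took 0.857 to 1.51% of the counts with d4T and 0.454 to 0.584% with DMSO, and the part of this difference in the results was not tested. Markers of adult hermaphrodites were present in every library. The yolk protein gene vit-2 stood at 6504, 6019.7 and 4802 CPM with d4T and 4590.3, 3531 and 3266 CPM with DMSO, and the oocyte gene oma-1 at 323, 300.1 and 319.5 CPM with d4T and 449.6, 484 and 459 CPM with DMSO. Of the markers of other stages, the sperm genes spe-9 and gsp-3 and the embryonic genes end-1 and end-3 stayed at or under 2.16 CPM in all 6 libraries, and no read fell on ceh-51. tbx-37, another embryonic gene, was at 13.9, 14.2 and 9.06 CPM with d4T and 5.13, 5.92 and 6.29 CPM with DMSO (adjusted p = 0.00845). Of the 4 markers of moulting larvae, mlt-10 was at 14.3, 21.3 and 13.3 CPM with d4T and 6.01, 7.91 and 6.66 CPM with DMSO (adjusted p = 0.000869), and noah-1, nhr-23 and dpy-7 did not pass. Their part in the results was not tested. As whole nematodes were measured, fewer cells of a tissue and less RNA per cell cannot be told apart.

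d4T against DMSO gave 1875 differentially expressed genes (DEGs) of 16048 tested, 11.7% of the genes. Of these, 934 were higher with d4T (5.82% of the genes tested) and 941 were lower (5.86%). A DEG is a gene with an adjusted p under 0.01 in edgeR's quasi-likelihood test, fitted over all 30 libraries and adjusted over all genes tested by Benjamini and Hochberg. The median risen DEG was 2.08-fold higher with d4T, and the median fallen DEG was 1.90-fold lower. A change of at least 2-fold was reached by 526 of the risen and 389 of the fallen DEGs. The 3 libraries of each group did not overlap for 1874 of the 1875 DEGs, and for 62.4% of all genes tested. The division into risen and fallen genes depended on the scaling, with 696 and 1188 DEGs under relative log expression scaling and 2367 and 508 under library totals. The median log2 fold change of all genes tested was 0.17, and it moved by -0.08 and 0.27 under these scalings.

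The genes that fell were shorter than the median gene, and those that rose were longer. The median summed exon length was 941.5 bases for fallen DEGs, 2800.0 bases for risen DEGs and 1307 bases for all genes tested. Their median levels with DMSO, which are not divided by length, were 94.9 CPM, 8.27 CPM and 7.44 CPM. In 10 bins of equal gene number, 7 genes rose and 148 fell in the bin of the shortest genes, while 406 rose and 6 fell in that of the longest. The controls differed by length as well. For DMSO against unexposed nematodes the median log2 fold change was 0.28 in the shortest bin and -0.49 in the longest, and for d4T against unexposed nematodes it was 0.28 and -0.10. When each library's dependence on exon length was taken out with an offset, 422 genes were higher (2.66%) and 1102 were lower (6.94%) of 15888 with a known length. Of the original DEGs, 358 of the risen and 800 of the fallen genes were among them. Of the called genes named here, 21 lost the call under the length offset, twk-11, wrt-2, K12H6.4, K12H6.9, sdha-1, dve-1, jmjd-3.1, unc-52, unc-13, ptr-23, bli-3, vab-10, pgp-2, pgp-11, epg-5, fasn-1, sams-1, phy-2, rpoa-1, ncl-1 and far-3, and atm-1 changed sign. Whether length or expression itself moved was not tested.

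**Figure D1:**
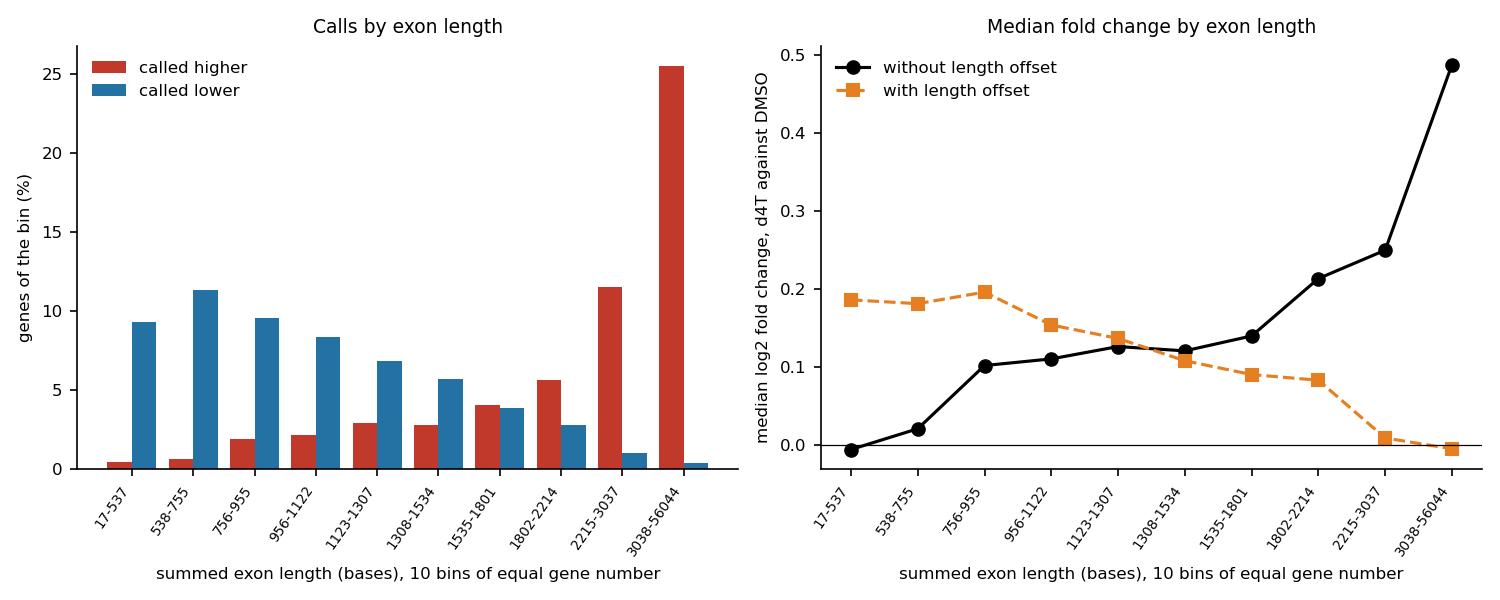
Genes by summed exon length, in 10 bins of equal gene number. Left, the percentage of each bin called higher (red) or lower (blue) with d4T than with DMSO at 72h, from 0.44% higher and 9.31% lower in the shortest bin to 25.6% higher and 0.378% lower in the longest. Right, the median log2 fold change of each bin, which rose from -0.01 to 0.49 without the length offset (black) and went from 0.19 to -0.00 with it (orange).

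Cytosolic ribosomal proteins, the protein part of the machine that translates nuclear messages, had the highest share of called genes of the 68 lists examined. Of 79 genes tested 70 fell with d4T and none rose, where 5.86% of all genes fell. Their median log2 fold change was -1.34, a 2.54-fold lower level, beside 0.17 for all genes tested. Summed over the list, they took 55856, 52730.5 and 55564 CPM with d4T and 138542, 117090.0 and 115001 CPM with DMSO. Every d4T library was thus far below every DMSO library. With the length offset 65 of the genes were lower.

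rps-29, a protein of the small subunit (WBGene00004498, chromosome III, 794300 to 795031 of WBcel235), stood at 184, 148 and 131 CPM with d4T and 1005, 688 and 769.9 CPM with DMSO. It had the largest fall among them (log2 fold change -2.41 ± 0.22 (SE), adjusted p = 6.94e-08). rpl-43 of the large subunit (chromosome II, 14155294 to 14155569) was measured at 237, 207 and 183 CPM with d4T and 1156, 831 and 846 CPM with DMSO (log2 fold change -2.17 ± 0.19 (SE), adjusted p = 4.66e-08). rpl-30, also of the large subunit, fell by 2.06 on the log2 scale. rps-10 (381, 346 and 347 CPM with d4T and 1488, 1258 and 1275 CPM with DMSO) and rps-27 (227, 214 and 187 CPM with d4T and 796, 608 and 706 CPM with DMSO) of the small subunit were among the 5 fallen genes with the smallest adjusted p, at 2.65e-08 and 4.03e-08. The groups did not overlap for any of these genes. The 9 members that did not pass were rpl-11.2, rpl-22, rpl-25.1, rpl-29, rpl-39, rpl-41.1, rpl-41.2, rps-17 and rps-28, with log2 fold changes of -0.69 to 0.19. They were named after their values were seen. rpl-11.2, rpl-25.1, rpl-41.1 and rpl-41.2 have a near copy in the genome, and reads that aligned at several places were not assigned to a gene.

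Genes for building ribosomes moved in both directions. Of 27 genes of the nucleolus and ribosome biogenesis, 7 fell and 3 rose, and without 1 of the libraries in turn 5 fell and 1 to 2 rose. rpoa-1, the largest subunit of the polymerase of ribosomal RNA genes, was at 37, 34.9 and 31.7 CPM with d4T and 19.8, 20.6 and 20 CPM with DMSO (log2 fold change 0.78 ± 0.14 (SE), adjusted p = 0.000361). ncl-1, known to restrain nucleolus size, was at 88.4, 93.5 and 90.8 CPM with d4T and 43.6, 47.6 and 42.3 CPM with DMSO (log2 fold change 1.03 ± 0.23 (SE), adjusted p = 0.00221). Neither passed with the length offset, at log2 fold changes of 0.17 (adjusted p = 0.317) for rpoa-1 and 0.50 (adjusted p = 0.0813) for ncl-1. Of 31 aminoacyl-tRNA synthetases, the enzymes that load tRNAs, 4 fell and none rose, 1 to 2 fell without 1 of the libraries in turn, and 11 were lower with the length offset. Of 33 proteasome subunits 8 fell and none rose, with pbs-1 of the catalytic core at 160.3, 132 and 139 CPM with d4T and 330.2, 287 and 296 CPM with DMSO, and 3 to 4 fell without 1 of the libraries in turn.

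**Figure D2:**
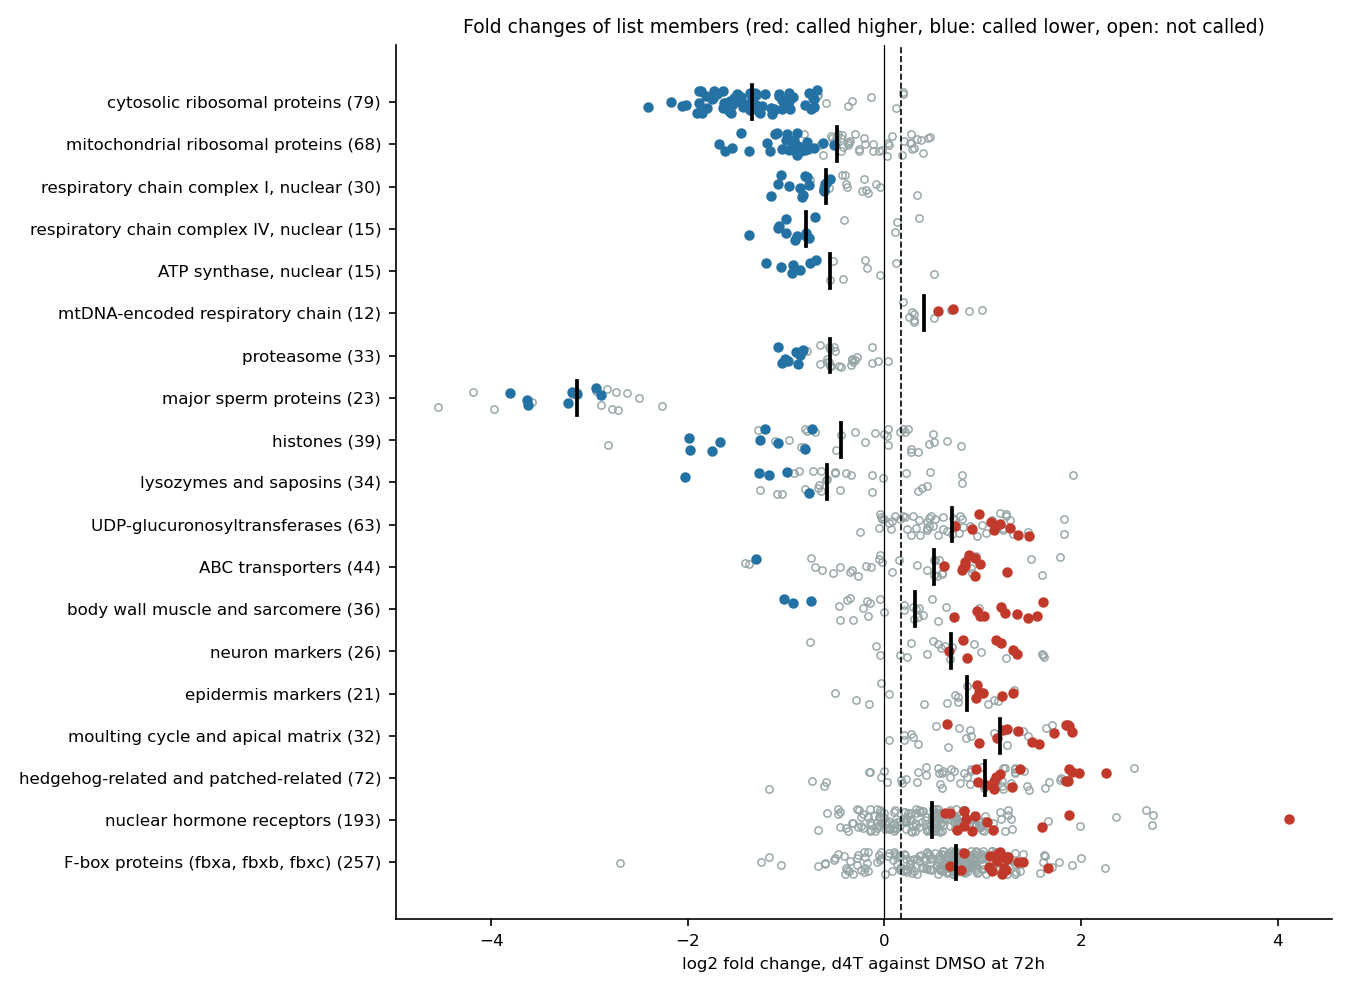
Log2 fold changes, d4T against DMSO at 72h, of the members of 19 lists, with the number of genes tested in brackets. Each point is a gene, the short black bars are list medians, the solid line is 0 and the dashed line is the median of all genes tested, 0.17. Cytosolic ribosomal proteins lie at a median of -1.34 with 70 of 79 called lower, while moulting genes (1.18) and hedgehog-related and patched-related genes (1.02) lie above all genes.

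Many nuclear genes of the mitochondrial ribosome and the respiratory chain were lower with d4T than with DMSO. Of 68 mitochondrial ribosomal proteins 27 fell and none rose (median log2 fold change -0.48). Of 30 nuclear genes of complex I, which takes electrons from NADH, 15 fell (median -0.60). Of 15 nuclear genes of complex IV, which passes electrons to oxygen, 11 fell (median -0.80), and of 15 nuclear genes of the ATP synthase 7 fell (median -0.55). No gene of these lists rose. Complexes II and III gave 6 fallen and 1 risen gene of 14. The length offset left 27, 15, 10 and 7 fallen genes of the mitochondrial ribosome, complex I, complex IV and the ATP synthase. In these 4 lists, 32, 21, 10 and 7 genes were higher with DMSO than in unexposed nematodes. None passed between d4T and unexposed nematodes. Mean summed levels of complex I were 3949 CPM with d4T, 5787 CPM with DMSO and 3636 CPM in unexposed nematodes. Those of complex IV were 2118, 3935 and 1982 CPM.

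mrps-28, a protein of the small mitochondrial subunit (chromosome V, 19644239 to 19645676), was measured at 15.8, 14.2 and 14.3 CPM with d4T and 49, 44.9 and 48.1 CPM with DMSO. It had the smallest adjusted p of all genes (log2 fold change -1.68 ± 0.13 (SE), adjusted p = 1.50e-08). mrpl-17 of the large mitochondrial subunit was at 20.5, 20.5 and 19.4 CPM with d4T and 59.6, 53.7 and 53 CPM with DMSO (log2 fold change -1.46 ± 0.13 (SE), adjusted p = 4.39e-08), and mrps-14 was at 36.8, 32.2 and 35.5 CPM with d4T and 114, 98.4 and 94.8 CPM with DMSO (log2 fold change -1.55 ± 0.17 (SE), adjusted p = 4.81e-07). The libraries within a group lay close together for all 3 genes, and the groups were far apart.

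Of the respiratory chain, ndua-12 of complex I was at 62.1, 62.9 and 54.2 CPM with d4T and 137, 126 and 134 CPM with DMSO (log2 fold change -1.15 ± 0.11 (SE), adjusted p = 9.90e-08). cox-5A of complex IV was at 295, 269.9 and 274 CPM with d4T and 590.5, 533 and 559 CPM with DMSO (adjusted p = 3.14e-07), and cox-7C of the same complex fell by 1.38 on the log2 scale. atp-5 of the ATP synthase was at 304, 284 and 301 CPM with d4T and 572, 558 and 559.8 CPM with DMSO (log2 fold change -0.93 ± 0.11 (SE), adjusted p = 1.57e-06). In each of them all d4T values lay below all DMSO values. Complex II was divided. Its iron-sulphur subunit sdhb-1 fell from DMSO to d4T (77.2, 76 and 78.9 CPM with d4T and 183, 161 and 169 CPM with DMSO, log2 fold change -1.15 ± 0.12 (SE), adjusted p = 1.84e-07), and its flavoprotein subunit sdha-1 rose (103, 108 and 99.8 CPM with d4T and 64.3, 72.8 and 67.8 CPM with DMSO, log2 fold change 0.60 ± 0.13 (SE), adjusted p = 0.00162). sdha-1 was not called with the length offset, at a log2 fold change of 0.38 (adjusted p = 0.0339). isp-1, the iron-sulphur protein of complex III, fell as well (181, 181 and 164 CPM with d4T and 289, 266 and 261 CPM with DMSO, log2 fold change -0.63 ± 0.11 (SE), adjusted p = 0.000208).

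Of the genes of mtDNA itself only COX1 and COX3 passed the test. All 12 respiratory chain genes of mtDNA had a positive log2 fold change, of 0.18 to 0.99 (median 0.40). Their summed level was 21594, 22250.0 and 20431 CPM with d4T and 15043, 15812 and 16819 CPM with DMSO, a ratio of 1.35. Unexposed nematodes had 23561, 22784 and 24105 CPM. COX1, the catalytic subunit of complex IV (mtDNA, 7827 to 9428), stood at 4603, 4602 and 4627 CPM with d4T and 3023, 3132 and 3350.0 CPM with DMSO (log2 fold change 0.54 ± 0.14 (SE), adjusted p = 0.00631). COX3, of the same complex (mtDNA, 5678 to 6449), stood at 4355, 4526 and 4267 CPM with d4T and 2385, 2791 and 2905 CPM with DMSO (log2 fold change 0.70 ± 0.18 (SE), adjusted p = 0.00549). Both encode parts of the complex of which 11 nuclear genes fell. Their direction held under both other scalings. Neither gene passed when any 1 library of either group was left out, when no filter on low counts was used or under relative log expression scaling, and with the length offset 4 of the 12 were higher.

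The other mtDNA genes did not pass the test. ND6 of complex I was at 111, 103 and 127 CPM with d4T and 55.2, 58.9 and 73.4 CPM with DMSO (log2 fold change 0.86 ± 0.26 (SE), adjusted p = 0.0192). ND1 of complex I had a log2 fold change of 0.50 ± 0.17 (adjusted p = 0.0332) and ND2 one of 0.99 ± 0.40 (adjusted p = 0.0656). For ND3, ND4, ND4L, ND5, CYTB, COX2 and ATP6 the log2 fold changes were 0.68, 0.30, 0.18, 0.30, 0.25, 0.28 and 0.30. ND4L was the only mtDNA gene whose groups overlapped. mtDNA genes are transcribed from 1 strand as joined messages and several overlap their neighbours, so that reads at their borders may not have been assigned.

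**Figure D3:**
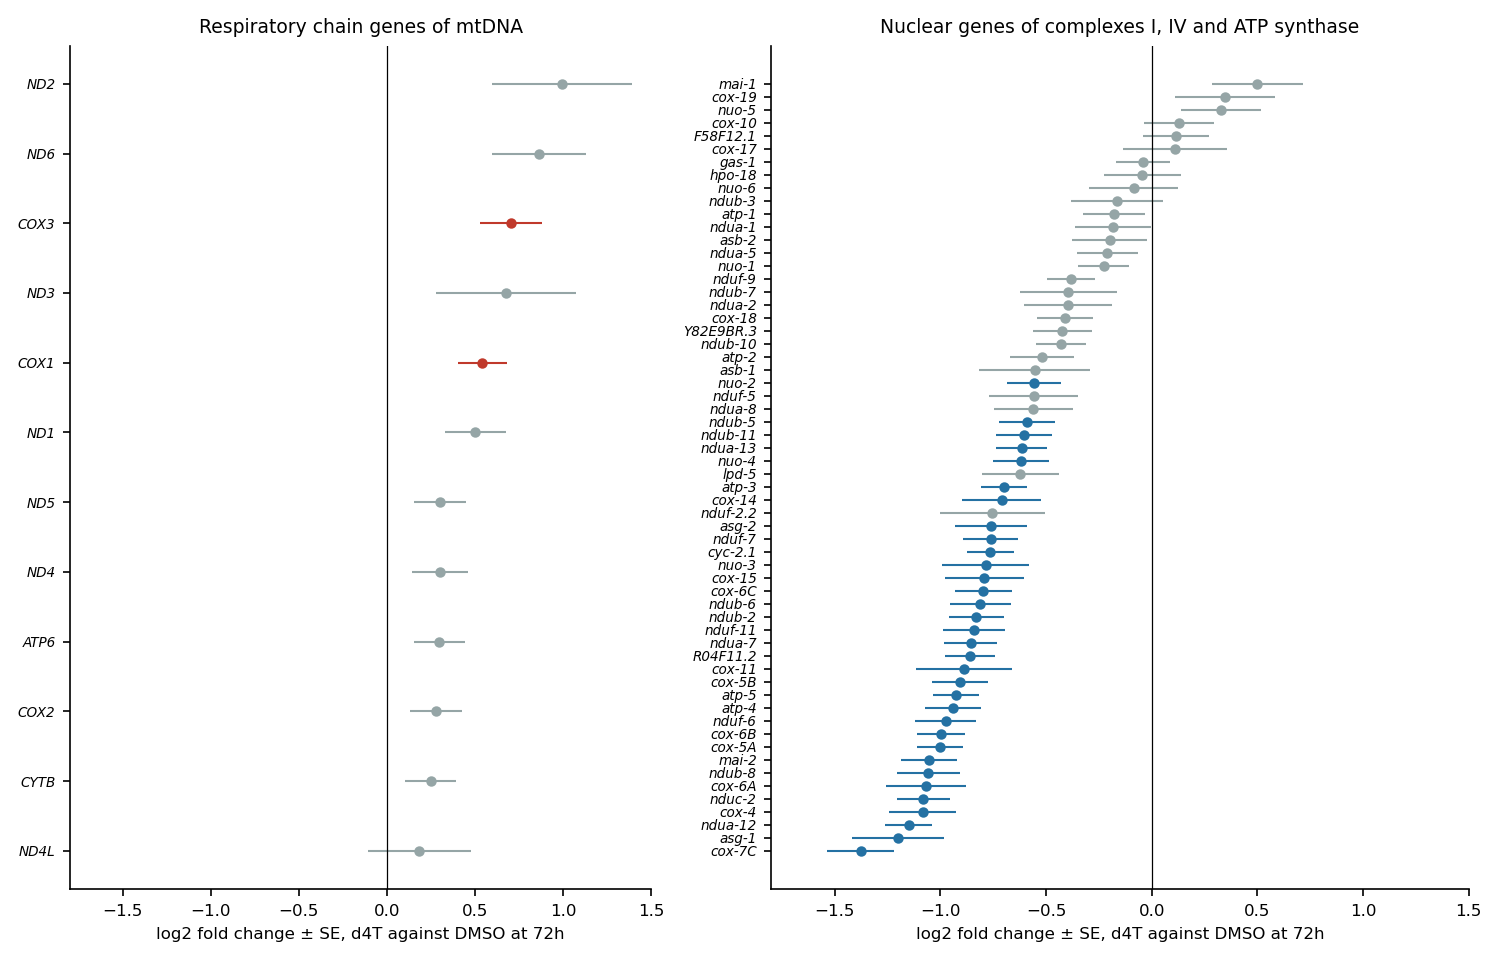
Log2 fold changes with their SE, d4T against DMSO at 72h, of the 12 respiratory chain genes of mtDNA (left) and of 60 nuclear genes of complexes I and IV and the ATP synthase (right). Red marks genes called higher, blue genes called lower and grey genes not called. The mtDNA genes lie between 0.18 and 0.99, and 33 nuclear genes were called lower.

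Few genes that keep and copy mtDNA passed. polg-1, the mitochondrial DNA polymerase, was at 22.8, 21.8 and 23.7 CPM with d4T and 22.7, 25.4 and 24.6 CPM with DMSO, and the groups overlapped (log2 fold change -0.09 ± 0.15 (SE), adjusted p = 0.671). Its direction turned under library totals. Of 9 such genes only tfbm-1, a mitochondrial rRNA methyltransferase, passed the test (16.6, 15.2 and 17 CPM with d4T and 34.9, 33.3 and 35.5 CPM with DMSO, log2 fold change -1.09 ± 0.17 (SE), adjusted p = 6.29e-05). Of 15 genes of pyrimidine and deoxynucleotide synthesis, which make the natural competitors of d4T, 3 fell and none rose. ndk-1, a nucleoside diphosphate kinase, was at 935, 816 and 827 CPM with d4T and 2450.0, 2105 and 2086 CPM with DMSO (log2 fold change -1.37 ± 0.18 (SE), adjusted p = 8.96e-06), and umps-1, the uridine monophosphate synthase, at 57.7, 51.6 and 52.5 CPM with d4T and 125, 113 and 108 CPM with DMSO (2.14-fold lower, adjusted p = 0.00306). Both were clearly separated by group. Of 10 genes of ubiquinone synthesis, which makes the electron carrier coenzyme Q, 4 fell and 1 rose, and without 1 of the libraries in turn 2 to 4 fell and 0 to 1 rose. coq-6 fell by 1.07 on the log2 scale (17.9, 18.8 and 21.2 CPM with d4T and 41.5, 39.4 and 40.1 CPM with DMSO), whereas clk-1, the hydroxylase of the pathway, did not pass (54.4, 46.6 and 66.4 CPM with d4T and 69.4, 71.5 and 73 CPM with DMSO, log2 fold change -0.35 ± 0.21 (SE), adjusted p = 0.214).

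Of 21 genes of the mitochondrial unfolded protein response 2 rose (9.52%, beside 5.82% of all genes) and 3 fell (14.3%, beside 5.86%). Without 1 of the libraries in turn 0 to 1 rose and 2 fell. dve-1, a transcription factor of the response, was at 18.1, 19.2 and 16.6 CPM with d4T and 9.88, 7.83 and 7.37 CPM with DMSO (2.15-fold higher, adjusted p = 0.00172), and jmjd-3.1, a histone demethylase of it, at 20.9, 26.7 and 24.7 CPM with d4T and 10.1, 10.6 and 9.82 CPM with DMSO (log2 fold change 1.25 ± 0.34 (SE), adjusted p = 0.0099). Both lost the call with the length offset. phb-2, a subunit of the prohibitin ring of the inner membrane, was at 217, 201 and 222 CPM with d4T and 499, 467 and 442 CPM with DMSO (log2 fold change -1.14 ± 0.20 (SE), adjusted p = 0.000184). atfs-1, the leading transcription factor of the response, did not pass (85.2, 79 and 77.3 CPM with d4T and 107, 106 and 102 CPM with DMSO, log2 fold change -0.38 ± 0.20 (SE), adjusted p = 0.166). Of 22 enzymes that handle superoxide and peroxide 4 fell (18.2%) and none rose, and 4 fell as well when any 1 library was left out. They included the cytosolic superoxide dismutase sod-1 (111 to 125 CPM with d4T, 226 to 264 CPM with DMSO, log2 fold change -1.04 ± 0.15 (SE), adjusted p = 1.55e-05) and the peroxiredoxins prdx-2 (-0.89 on the log2 scale) and prdx-6 (-1.37).

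The stress regulators hif-1, cep-1, skn-1 and daf-16 did not pass the test. hif-1, the hypoxia factor, was at 87.8, 96.5 and 88.8 CPM with d4T and 76.7, 78.1 and 75.6 CPM with DMSO (log2 fold change 0.25 ± 0.20 (SE), adjusted p = 0.362). cep-1, the p53 homologue, was at 139, 129.5 and 159 CPM with d4T and 144, 139 and 134 CPM with DMSO (log2 fold change 0.04 ± 0.32 (SE), adjusted p = 0.94), and its groups overlapped. skn-1, which drives detoxification genes, had a log2 fold change of -0.17 ± 0.17 (adjusted p = 0.473) and daf-16, the FOXO factor of insulin signalling, one of 0.17 ± 0.11 (adjusted p = 0.28). The direction turned for cep-1 under relative log expression scaling and with the length offset, for hif-1 and daf-16 with the length offset, and for skn-1 under library totals. gst-4, a glutathione transferase used as a reporter of oxidative stress, was at 71.7, 55.1 and 51.9 CPM with d4T and 53.3, 53.3 and 43.4 CPM with DMSO (log2 fold change 0.25 ± 0.18 (SE), adjusted p = 0.3).

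Of 21 genes of the HIF-1 pathway 2 rose (9.52%) and 1 fell (4.76%), near the 5.82% and 5.86% of all genes. Their median log2 fold change was 0.04. The risen genes were the prolyl hydroxylase gene phy-2 (26.6, 27.9 and 25.7 CPM with d4T and 14.6, 14.3 and 11.4 CPM with DMSO, log2 fold change 0.99 ± 0.27 (SE), adjusted p = 0.00912) and hlh-30. The fallen gene was cox-5B (318, 279.7 and 329 CPM with d4T and 622, 562 and 554 CPM with DMSO), a subunit of complex IV. Of 50 genes around CEP-1, cell death and DNA repair, 1 rose and 1 fell (2% each). atm-1, a kinase that senses DNA breaks, was at 64.8, 55 and 54.2 CPM with d4T and 32.9, 39.4 and 33.7 CPM with DMSO (log2 fold change 0.71 ± 0.16 (SE), adjusted p = 0.00176), and its log2 fold change with the length offset was -0.00 (adjusted p = 0.993). pms-2, a mismatch repair gene, was at 54.9, 48.4 and 54.7 CPM with d4T and 87.7, 82.9 and 81.3 CPM with DMSO (log2 fold change -0.67 ± 0.16 (SE), adjusted p = 0.00358). Of 25 SKN-1 targets only prdx-2 passed (4%), and it fell. Other settings gave other counts. DESeq2 called 1 higher and 8 lower of the 50 genes around CEP-1, the length offset 7 lower, and 23 had an unadjusted p under 0.05. Of the 50 genes 42 had a negative log2 fold change (median -0.43). A fit of the compared groups alone called 1 higher and 32 lower of them, beside 3023 and 3515 of all 14297 genes tested. That fit gave 1 higher and 6 lower SKN-1 targets, and 6 and 2 genes of the HIF-1 pathway. Of the SKN-1 targets DESeq2 called 3 lower, and 7 had an unadjusted p under 0.05. Without 1 of the libraries in turn, 1 gene of the HIF-1 pathway rose and 1 fell, and of the genes around CEP-1 0 to 1 rose and none fell.

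Part of the genes of the epidermis and its outer matrix rose. Of 32 genes of the moulting cycle and the apical matrix 13 rose and none fell (median log2 fold change 1.18), and all 32 had a positive value. The list's summed level was 846, 948 and 874 CPM with d4T and 559.7, 569.9 and 545 CPM with DMSO. Of 72 hedgehog-related and patched-related genes, which in nematodes act largely in cuticle formation, 15 rose and none fell (median 1.02), 11 of them patched-related ptr genes. Of 21 epidermis markers 6 rose and none fell. Their mean summed level was 1378 CPM with d4T, 923 CPM with DMSO and 1335 CPM in unexposed nematodes, and that of the moulting list was 890, 558 and 767 CPM. In the moulting, hedgehog-related and epidermis lists 6, 10 and 3 genes were lower with DMSO than in unexposed nematodes. No member of these lists passed between d4T and unexposed nematodes in edgeR. With the length offset 4, 2 and 1 members of these lists were higher, with medians of 0.84, 0.88 and 0.48. Without 1 of the libraries in turn the risen members numbered 2 to 6, 4 to 6 and 4 to 5. Of 125 cuticle collagens, the bulk of the cuticle, 2 rose and 1 fell, and 0 to 1 did so in either direction without 1 of the libraries in turn.

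nhr-41, a nuclear hormone receptor listed with the moulting genes, was at 7.39, 8.61 and 7.31 CPM with d4T and 1.89, 2.12 and 2.31 CPM with DMSO (log2 fold change 1.88 ± 0.35 (SE), adjusted p = 0.000363). mlt-7, a peroxidase that crosslinks cuticle, was at 18.3, 22.4 and 21 CPM with d4T and 9.88, 12.4 and 9.41 CPM with DMSO (log2 fold change 0.96 ± 0.19 (SE), adjusted p = 0.000711). bli-3, the dual oxidase that supplies its peroxide, was at 27.5, 29.7 and 26.6 CPM with d4T and 12.6, 13 and 12.3 CPM with DMSO (log2 fold change 1.15 ± 0.21 (SE), adjusted p = 0.000314). All d4T values of these genes lay above all DMSO values. Among the patched-related genes, ptr-18 was at 7.39, 13.6 and 11.8 CPM with d4T and 3.24, 2.71 and 2.83 CPM with DMSO (log2 fold change 1.90 ± 0.34 (SE), adjusted p = 0.000227) and ptr-23 at 26.3, 31.4 and 29 CPM with d4T and 14.4, 12.5 and 13.1 CPM with DMSO (log2 fold change 1.12 ± 0.21 (SE), adjusted p = 0.000463). wrt-2, a hedgehog-related warthog gene, was at 4.17, 6.67 and 6.4 CPM with d4T and 1.39, 1.1 and 1.12 CPM with DMSO (log2 fold change 2.26 ± 0.61 (SE), adjusted p = 0.00871). dpy-1, whose mutants are short and thick, was at 3.79, 7.22 and 5.98 CPM with d4T and 0.715, 1.14 and 1.67 CPM with DMSO (log2 fold change 2.25 ± 0.47 (SE), adjusted p = 0.00134). For ptr-18, dpy-1 and wrt-2 the d4T library of replicate 1 was the lowest of its group. vab-10, a spectraplakin that ties the epidermis to muscle, was at 179, 176 and 160.0 CPM with d4T and 75.1, 81.6 and 67.9 CPM with DMSO (2.29-fold higher, adjusted p = 0.00021), and its log2 fold change with the length offset was 0.06 (adjusted p = 0.748).

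Muscle genes moved in both directions. Of 36 sarcomere and body wall muscle genes 10 rose and 3 fell. unc-54, the major myosin heavy chain, was at 112, 105 and 107 CPM with d4T and 48.1, 41.7 and 37.5 CPM with DMSO (log2 fold change 1.35 ± 0.19 (SE), adjusted p = 1.98e-05). unc-52, the perlecan of the muscle basement membrane, was at 60.9, 63.7 and 57.5 CPM with d4T and 24.6, 19.6 and 17.9 CPM with DMSO (log2 fold change 1.55 ± 0.22 (SE), adjusted p = 2.25e-05). The fallen genes were mlc-2, unc-27 and unc-87. mlc-2, a myosin light chain, was at 73.7, 82.9 and 88.9 CPM with d4T and 189, 148 and 161 CPM with DMSO (log2 fold change -1.02 ± 0.16 (SE), adjusted p = 7.05e-05), and unc-27, a troponin I, at 84.9, 86.1 and 88.3 CPM with d4T and 188, 157 and 150.4 CPM with DMSO (log2 fold change -0.93 ± 0.15 (SE), adjusted p = 9.29e-05). unc-87, a calponin-related protein of thin filaments, was at 61.8, 65.8 and 79.4 CPM with d4T and 124, 113 and 109.7 CPM with DMSO (log2 fold change -0.74 ± 0.18 (SE), adjusted p = 0.00361). With the length offset 1 muscle gene was higher and 3 were lower. Between DMSO and unexposed nematodes 7 muscle genes were higher and 7 lower with DMSO, and none passed between d4T and unexposed nematodes in edgeR. Of 26 neuron markers 7 rose and none fell, among them unc-13, which primes synaptic vesicles (11.7, 17.5 and 16.2 CPM with d4T and 5.59, 6.98 and 5.25 CPM with DMSO, log2 fold change 1.35 ± 0.26 (SE), adjusted p = 0.000484). Of the neuron markers 1 was higher with the length offset, and 4 to 6 rose without 1 of the libraries in turn. Between DMSO and unexposed nematodes 4 neuron markers were lower with DMSO, and none passed between d4T and unexposed nematodes in edgeR. None of 95 neuropeptide genes and none of 24 intestine markers passed in edgeR, where 9 of each list had an unadjusted p under 0.05, and 2 of each passed in DESeq2.

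Part of the sperm genes fell, those of the major sperm protein from low levels. Summed over 162 sperm genes, the level was 1067, 1130 and 1141 CPM with d4T and 1652, 1489 and 1534 CPM with DMSO, with 1335, 1311 and 1412 CPM in unexposed nematodes. Of 120 sperm genes tested 27 fell and none rose, and all 23 tested genes of the major sperm protein, the motor protein of nematode sperm, had a negative log2 fold change (median -3.13, 8 called). The summed level of 31 major sperm protein genes was 2.18, 3.66 and 5.73 CPM with d4T and 48.9, 19 and 31.1 CPM with DMSO, with 2.92, 0.621 and 3.8 CPM in unexposed nematodes. msp-50 was at 0.115, 0.271 and 0.245 CPM with d4T and 4.12, 1.73 and 3.27 CPM with DMSO (log2 fold change -3.81 ± 0.71 (SE), adjusted p = 0.000411), which is 3 to 8 counts per d4T library. These genes are near copies of each other, so that their single values are uncertain. nspg-8, listed with the sperm genes, was at 9.88, 8.61 and 10.3 CPM with d4T and 28.1, 25.3 and 32.3 CPM with DMSO. Without 1 of the libraries in turn 3 to 17 sperm genes and 1 to 7 of the major sperm protein genes fell, and with the length offset 15 did.

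Other germline lists held few calls in the fit over all 30 libraries. Log2 fold changes were negative for 28 of 34 replication genes, 35 of 43 cell cycle genes and 18 of 23 eggshell genes. A fit of the compared groups alone, which called 3023 genes higher and 3515 lower of 14297, gave more calls. It called 4 replication genes higher and 23 lower, 1 and 24 of the cell cycle, and 3 and 18 of the eggshell. Of 34 genes of DNA replication none passed in edgeR and 2 in DESeq2, with 11 at an unadjusted p under 0.05. Of 43 genes of the cell cycle none passed in edgeR and 3 in DESeq2, with 10 at an unadjusted p under 0.05. Of 23 eggshell genes only perm-2, of the permeability barrier of the egg, passed (448, 364 and 385 CPM with d4T and 1255, 1058 and 1113 CPM with DMSO, log2 fold change -1.52 ± 0.22 (SE), adjusted p = 2.45e-05). Of 7 genes for yolk proteins and their receptor none passed in edgeR or DESeq2, with 1 at an unadjusted p under 0.05. Of 39 histone genes 9 fell and none rose, and 4 to 8 fell without 1 of the libraries in turn. his-74, an H3 variant gene, was at 154, 121 and 166 CPM with d4T and 496, 464 and 446 CPM with DMSO (log2 fold change -1.67 ± 0.32 (SE), adjusted p = 0.00058), and htz-1, the H2A.Z variant gene, at 618, 631 and 652 CPM with d4T and 1159, 1081 and 1100.3 CPM with DMSO (log2 fold change -0.81 ± 0.14 (SE), adjusted p = 0.000187).

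**Figure D4:**
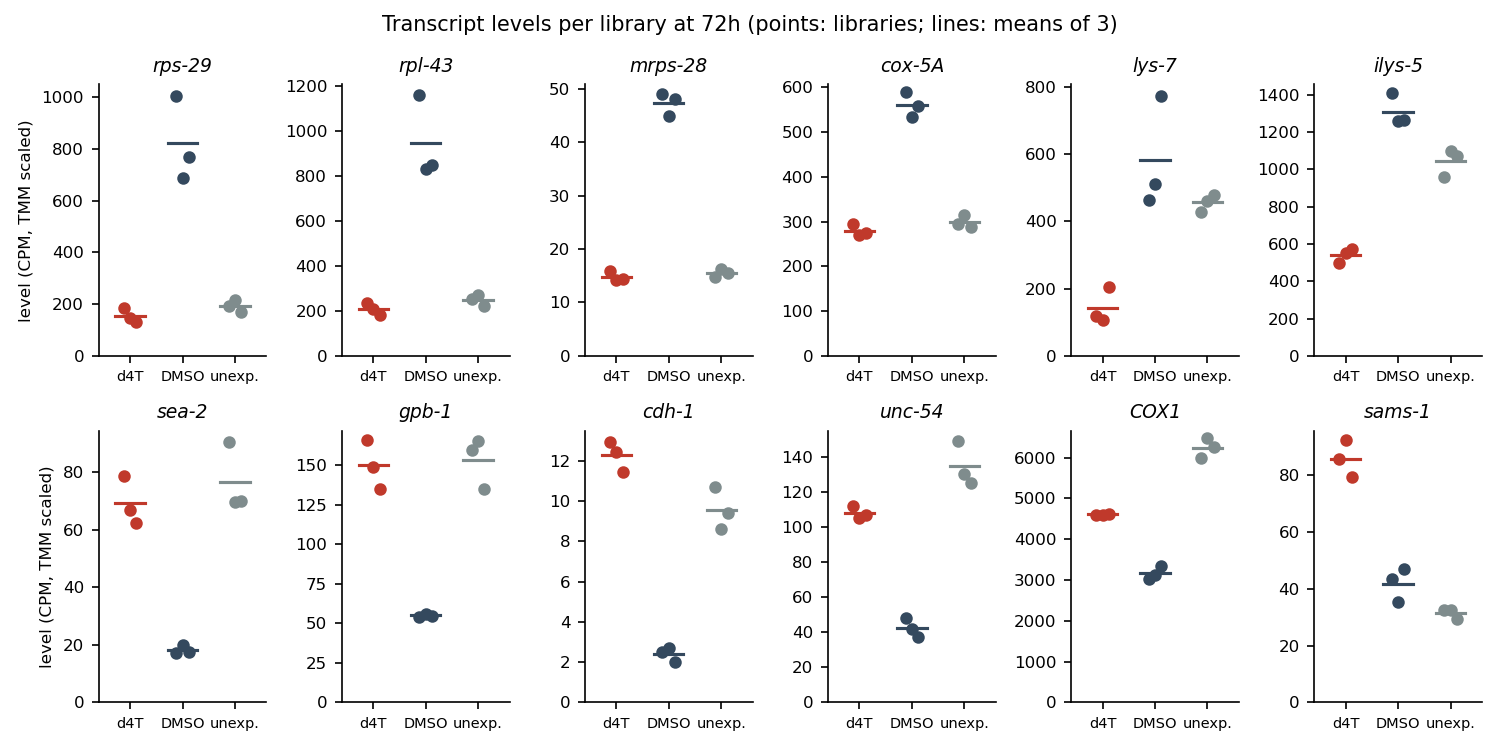
Levels of 12 genes per library at 72h in CPM with TMM scaling, with d4T (red), DMSO (dark) and unexposed nematodes (grey). Points are libraries and lines are group means, and each vertical axis starts at 0. In each panel the d4T points lie apart from the DMSO points, and for rps-29, rpl-43, mrps-28, sea-2 and gpb-1 they lie near the unexposed points.

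Among genes that handle foreign compounds, 9 of 63 UDP-glucuronosyltransferases, which join glucuronic acid to them, rose and none fell. ugt-17 was at 56.6, 55.4 and 49.4 CPM with d4T and 22.6, 22.6 and 29.5 CPM with DMSO (log2 fold change 1.11 ± 0.18 (SE), adjusted p = 0.000102) and ugt-12 at 36, 28.4 and 28.7 CPM with d4T and 13.3, 14.5 and 13.4 CPM with DMSO (log2 fold change 1.18 ± 0.18 (SE), adjusted p = 4.26e-05). Both were called with the length offset, under which 7 members were higher, and 3 to 6 rose without 1 of the libraries in turn. The list's mean summed level was 1333 CPM with d4T, 967 CPM with DMSO and 1320 CPM in unexposed nematodes. Between DMSO and unexposed nematodes 7 members were lower with DMSO and none was higher. Of 44 ABC transporters, which pump compounds across membranes, 10 rose (22.7%) and 1 fell (2.27%), beside 5.82% and 5.86% of all genes. pgp-11, a P-glycoprotein, was at 16.3, 16.6 and 12.9 CPM with d4T and 6.52, 6.3 and 6.44 CPM with DMSO (log2 fold change 1.25 ± 0.23 (SE), adjusted p = 0.0003), and pgp-2, of gut granules, at 54.1, 46.3 and 47.8 CPM with d4T and 29.2, 27.5 and 27.4 CPM with DMSO (log2 fold change 0.82 ± 0.13 (SE), adjusted p = 4.53e-05). The fallen gene, wht-7, was at 26.3, 26.8 and 30.2 CPM with d4T and 72.6, 69.1 and 65.2 CPM with DMSO (log2 fold change -1.31 ± 0.30 (SE), adjusted p = 0.00242). Of the transporters 1 was higher and 3 were lower with the length offset, and without 1 of the libraries in turn 4 to 6 rose and 0 to 1 fell. Between DMSO and unexposed nematodes 13 transporters were lower with DMSO and 1 was higher. Of 66 cytochromes P450 2 rose and 2 fell (3.03% each), and of 44 glutathione S-transferases 1 fell (2.27%). These shares were under those of all genes. Without 1 of the libraries in turn 0 to 1 cytochrome P450 gene moved in either direction.

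Lysosomal and lipid genes included single large changes. hlh-30, the factor that drives autophagy and lysosome genes, was at 50.5, 44.5 and 37.7 CPM with d4T and 20.6, 19.4 and 17.7 CPM with DMSO (adjusted p = 2.34e-05). epg-5, of autophagosome fusion, was at 21.7, 21.4 and 21.7 CPM with d4T and 7.87, 10.1 and 11.4 CPM with DMSO (log2 fold change 1.14 ± 0.15 (SE), adjusted p = 8.26e-06), whereas atg-3, which acts in joining lipid to the LC3 homologue, was at 38.6, 32.6 and 29 CPM with d4T and 59.9, 55.8 and 66.8 CPM with DMSO (log2 fold change -0.87 ± 0.18 (SE), adjusted p = 0.00108). Of 31 autophagy and lysosome genes 6 rose (19.4%) and 1 fell (3.23%), beside 5.82% and 5.86% of all genes. hlh-30 was among 3 that were higher with the length offset. vha-5, a subunit of the vacuolar proton pump also used in cuticle secretion, was at 87.3, 100.1 and 80.5 CPM with d4T and 36, 36.2 and 35.5 CPM with DMSO (log2 fold change 1.31 ± 0.15 (SE), adjusted p = 8.22e-07). fasn-1, the fatty acid synthase, was at 158, 178 and 160.4 CPM with d4T and 77.9, 81.9 and 87.9 CPM with DMSO (adjusted p = 0.00291), and its log2 fold change with the length offset was 0.24 (adjusted p = 0.326).

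Of 34 lysozymes and saposins, which act on bacteria, 5 fell (14.7%, beside 5.86% of all genes) and none rose. Without 1 of the libraries in turn 3 to 5 fell. lys-7, a lysozyme of the intestine, was at 118, 107 and 204 CPM with d4T and 463, 511 and 774 CPM with DMSO (log2 fold change -2.02 ± 0.43 (SE), adjusted p = 0.00158). The d4T library of replicate 3 was the highest of its group and still below the lowest DMSO library. ilys-5, an invertebrate lysozyme, was at 497, 553 and 572 CPM with d4T and 1409, 1257 and 1262 CPM with DMSO (log2 fold change -1.28 ± 0.16 (SE), adjusted p = 2.04e-06), and spp-10, a saposin, at 84.2, 95.2 and 96.6 CPM with d4T and 227, 201 and 194 CPM with DMSO (log2 fold change -1.17 ± 0.16 (SE), adjusted p = 9.78e-06). Of 257 F-box genes of the fbxa, fbxb and fbxc groups, adaptors of ubiquitin ligases, 19 rose (7.39%, near the 5.82% of all genes) and none fell, with a median log2 fold change of 0.73. Without 1 of the libraries in turn 3 to 8 rose. fbxb-75 was at 11.8, 14.7 and 9.86 CPM with d4T and 4.67, 4.44 and 4.54 CPM with DMSO (log2 fold change 1.41 ± 0.28 (SE), adjusted p = 0.000669) and fbxa-51 at 23.8, 14.8 and 14.1 CPM with d4T and 7.61, 7.7 and 7.78 CPM with DMSO (log2 fold change 1.19 ± 0.22 (SE), adjusted p = 0.000331). The length offset left 21 F-box genes higher. Of 193 nuclear hormone receptors 13 rose and none fell, 6.74% beside 5.82% of all genes, so that this list's share was near the background, and 3 to 7 rose without 1 of the libraries in turn.

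The largest rise among DEGs with at least 5 CPM in a group was that of C09F9.2 (WBGene00007479, chromosome II, 14705515 to 14713240), at 11.7, 17.1 and 13 CPM with d4T and 1.72, 2.28 and 1.75 CPM with DMSO (log2 fold change 2.86 ± 0.53 (SE), adjusted p = 0.000396). It was followed by F33D4.6 (7.27, 13.1 and 11.3 CPM with d4T and 2.27, 1.99 and 1.86 CPM with DMSO) and by cdh-1, a cadherin of cell contacts (chromosome III, 2910906 to 2935961), which was at 12.9, 12.4 and 11.5 CPM with d4T and 2.52, 2.71 and 2.01 CPM with DMSO (log2 fold change 2.35 ± 0.32 (SE), adjusted p = 1.17e-05). frm-5.1, gsa-1 and twk-11, a FERM domain gene, the stimulatory G protein alpha subunit and a potassium channel, had log2 fold changes of 2.04, 2.11 and 1.96. Those of glf-1, a galactofuranose enzyme of the surface coat, and of epic-2 were 2.03 and 1.95. F26A10.2 and Y65B4BL.1 had values of 2.02 and 1.96.

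The risen genes with the smallest adjusted p were sea-2, gpb-1, ell-1, din-1 and vha-5. sea-2, a zinc finger gene known from sex determination (chromosome II, 3950377 to 3972140), was at 78.7, 66.7 and 62.4 CPM with d4T and 17.1, 19.8 and 17.4 CPM with DMSO (log2 fold change 1.94 ± 0.17 (SE), adjusted p = 4.66e-08). gpb-1, the G protein beta subunit (chromosome II, 11742811 to 11748611), was at 166, 148 and 135 CPM with d4T and 54.2, 55.9 and 54.8 CPM with DMSO (log2 fold change 1.45 ± 0.14 (SE), adjusted p = 9.90e-08). din-1, a corepressor that works with the receptor DAF-12, was at 97.4, 101 and 84.4 CPM with d4T and 33.1, 39.8 and 31.4 CPM with DMSO (log2 fold change 1.44 ± 0.16 (SE), adjusted p = 4.85e-07), and ell-1, an elongation factor gene, rose by 1.51 on the log2 scale. sea-2 and gpb-1 kept their call with the length offset, where log2 fold changes were 1.28 (adjusted p = 3.17e-06) for sea-2 and 1.21 (adjusted p = 1.58e-06) for gpb-1.

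Among DEGs with at least 5 CPM in a group, the largest fall was that of WBGene00004817, a pseudogene (chromosome V, 16389241 to 16389865), at 1.23, 0.813 and 1.61 CPM with d4T and 11.5, 10.7 and 10.9 CPM with DMSO (log2 fold change -3.18 ± 0.65 (SE), adjusted p = 0.000945). clec-94, a C-type lectin, followed at 1.03, 0.678 and 0.629 CPM with d4T and 6.39, 4.95 and 5.06 CPM with DMSO (log2 fold change -2.81 ± 0.64 (SE), adjusted p = 0.0028). C14C6.5 was at 13.3, 14.6 and 23.9 CPM with d4T and 82.9, 83.3 and 97.9 CPM with DMSO (log2 fold change -2.35 ± 0.44 (SE), adjusted p = 0.00041). ufm-1, a small ubiquitin-like modifier (chromosome III, 7858979 to 7859512), was at 26.8, 22.9 and 35 CPM with d4T and 156, 128 and 129.8 CPM with DMSO (log2 fold change -2.28 ± 0.28 (SE), adjusted p = 1.83e-06). The groups of ufm-1 lay far apart, at over 20 CPM in all libraries. Y51A2D.8, K12H6.4, F01D5.5 and K12H6.9 were at 0.957 to 13.9 CPM, with log2 fold changes of -2.37, -2.28, -2.18 and -2.13. K12H6.4 and K12H6.9 are neighbours on chromosome II.

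The DEGs were unevenly spread over the genome. On the X chromosome 216 of 2303 genes tested rose and 18 fell (9.38% and 0.782%). On chromosome I 4.97% rose and 8.77% fell, and on chromosome III 4.97% rose and 8.15% fell. The median log2 fold change was 0.46 on X and -0.01 on both of these autosomes, and with the length offset it was 0.38, -0.12 and -0.10. For DMSO against unexposed nematodes the medians on X, I and III were -0.32, 0.05 and 0.03. For d4T against unexposed nematodes they were 0.09, 0.01 and -0.01.

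Against unexposed nematodes, d4T gave 33 DEGs of 16048 (0.206%), of which 16 were higher (0.0997%) and 17 lower (0.106%) with d4T. DMSO against unexposed nematodes gave 1881 (11.7%), 917 higher (5.71%) and 964 lower (6.01%) with DMSO. The count of 33 depended on the fit. DESeq2 gave 131 genes between d4T and unexposed nematodes, a fit of these groups alone gave 1770 of 14462 tested (898 higher and 872 lower), and leaving out single libraries gave 10 to 18. These comparisons share libraries with d4T against DMSO. For the genes higher with d4T than with DMSO the median log2 fold change against unexposed nematodes was 0.15, and for the lower genes it was -0.08. The summed level of cytosolic ribosomal proteins was 45722, 51688 and 47217 CPM in unexposed nematodes, close to that with d4T, and none of these genes passed between d4T and unexposed in edgeR or DESeq2 (median log2 fold change 0.10), with 9 of 79 at an unadjusted p under 0.05. rps-29 was at 193, 217 and 169 CPM in unexposed nematodes, sea-2 at 90.6, 69.7 and 69.9 CPM and unc-54 at 149, 130.4 and 125 CPM. The plates with d4T held DMSO as well, so that the d4T and the DMSO libraries share the solvent and the unexposed ones lack it. A gene that did not pass between d4T and unexposed nematodes is not shown to be equal in them.

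**Figure D5:**
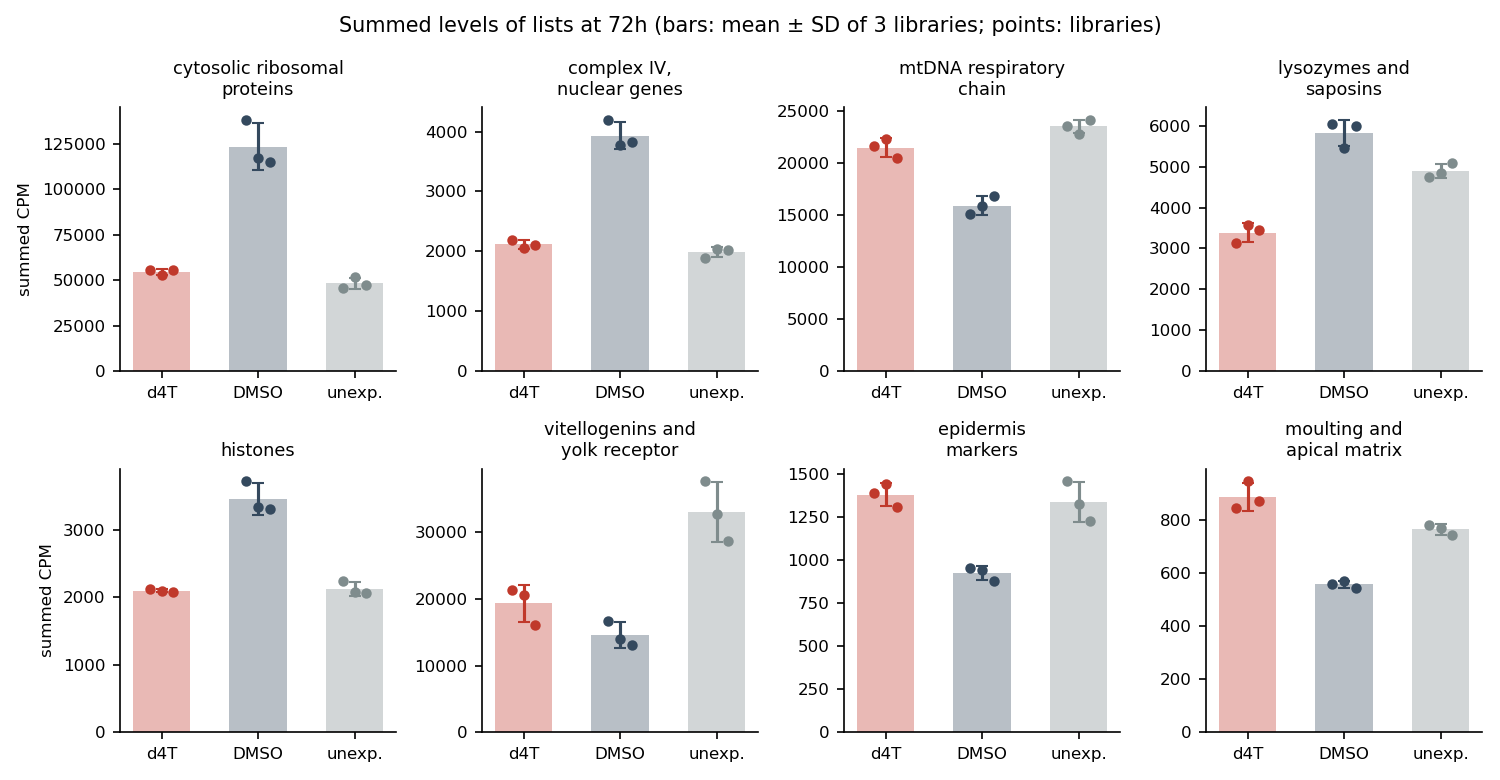
Summed levels of 8 lists at 72h in CPM, with d4T (red), DMSO (dark) and in unexposed nematodes (grey). Bars are means with SD over 3 libraries and points are libraries. d4T lies apart from DMSO and near unexposed nematodes for ribosomal proteins, complex IV and histones, and lowest of the groups for lysozymes and saposins. Yolk genes stay below the unexposed level with both exposures.

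A few genes differed with d4T from both controls, and they were named after their values were seen. scb-1, known from the sensitivity of nematodes to bleomycin (chromosome V, 11118766 to 11119705), was at 17.8, 19.1 and 19.4 CPM with d4T and 60.4, 62.3 and 56 CPM with DMSO (log2 fold change -1.67 ± 0.15 (SE), adjusted p = 4.66e-08), and at 37.1, 39.7 and 41.8 CPM in unexposed nematodes (log2 fold change -1.08 ± 0.15 (SE), adjusted p = 0.000314). far-3, a fatty acid and retinol binding protein gene, was at 93.9, 79 and 109 CPM with d4T and 172, 207 and 153 CPM with DMSO, and at 348, 406 and 374 CPM in unexposed nematodes (adjusted p = 1.26e-05). Both were lowest with d4T in all libraries, as was ilys-5, at 958, 1100.5 and 1073 CPM in unexposed nematodes (log2 fold change -0.95 ± 0.15 (SE), adjusted p = 0.00178). W01A11.1 was also lower than in either control, with log2 fold changes of -0.63 and -1.34.

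sams-1, which makes the methyl donor S-adenosylmethionine, was higher than in both controls, at 85.6, 92.4 and 79.4 CPM with d4T and 43.4, 35.2 and 46.8 CPM with DMSO (log2 fold change 1.04 ± 0.25 (SE), adjusted p = 0.00421) and at 32.6, 32.4 and 29.4 CPM in unexposed nematodes (log2 fold change 1.45 ± 0.25 (SE), adjusted p = 0.00361). Its paralog sams-3 fell, at 33.5, 35.5 and 31.8 CPM with d4T and 70.4, 60 and 68.5 CPM with DMSO (log2 fold change -0.98 ± 0.16 (SE), adjusted p = 0.000122), and reads that both genes could have given may be split between them. ugt-17 was at 25.3, 19.7 and 27.2 CPM in unexposed nematodes (log2 fold change 1.16 ± 0.18 (SE), adjusted p = 0.0013). K08D8.6, F58G6.7 and F58G6.3 were also higher than in both, by 0.71, 0.94 and 0.87 against DMSO and by 0.66 and 1.44 for the first and last of them against unexposed nematodes on the log2 scale. F58G6.3 and F58G6.7 lie side by side on chromosome IV (9653535 to 9655588), next to chca-1, which was at 25, 25.8 and 18 CPM with d4T and 15.3, 12.4 and 14.8 CPM with DMSO and at 4.77, 4.8 and 7.4 CPM in unexposed nematodes.

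Other genes differed from unexposed nematodes and had no call against DMSO. cyp-14A2 and cyp-14A3, cytochromes P450 beside each other on the X chromosome, were at 11.4, 15.1 and 9.42 CPM and 10.5, 19.9 and 8.36 CPM in unexposed nematodes. With d4T they were at 1.22 to 2.55 CPM and 0.498 to 1.78 CPM, and with DMSO at 2.48 to 5.16 CPM and 0.967 to 3.34 CPM. ugt-25 was at 14.9, 12 and 13.8 CPM with d4T and 11.2, 14 and 9.56 CPM with DMSO and at 47.4, 58.3 and 45.8 CPM in unexposed nematodes. acp-6, an acid phosphatase, was at 414, 362 and 366 CPM with d4T and 303, 339 and 251 CPM with DMSO and at 963, 959.6 and 873 CPM in unexposed nematodes. pgp-1, a P-glycoprotein, was higher than in unexposed nematodes, at 37.7, 21.3 and 32.3 CPM with d4T and 30.8, 32.9 and 30.8 CPM with DMSO and at 10.9, 11.6 and 14.9 CPM. These genes stood apart from unexposed nematodes with either exposure. Of the mtDNA genes, ND6 was higher with d4T than in unexposed nematodes, which were at 35.5, 33.9 and 38.6 CPM (log2 fold change 1.66 ± 0.27 (SE), adjusted p = 0.00178).

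The effect of d4T at 72h differed from that at 24h for 1286 of 16048 genes (8.01%), 791 with a higher (4.93%) and 495 with a lower value at 72h (3.08%), in the test of the difference itself. Of the cytosolic ribosomal proteins 64 of 79 were among the lower ones, and their median log2 fold change was 0.10 at 24h. The major sperm protein genes had a median of 1.31 at 24h, and 15 of 23 passed the test of the difference. Of the F-box genes 81 of 257 had a higher value at 72h, with a median of -0.52 at 24h. Leaving out the d4T library of replicate 2 at 24h gave 2415 genes, 1417 higher and 998 lower, and leaving out any other single library gave 804 to 1325.

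Whether reads were counted by strand is not given in the sources used here, so that overlapping genes may share reads. Of the genes named, wrt-2, F33D4.6, gpb-1, vha-5, skn-1, phb-2, tfbm-1, unc-52, mlc-2, bli-3, vab-10, epg-5, pms-2, perm-2, ncl-1, far-3, W01A11.1, scb-1, unc-87, sams-3 and ugt-25 share exon sequence with a protein-coding gene on the other strand. Y65B4BL.1, gpb-1 and gst-4 share it with a neighbour on the same strand.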

How the data were processed

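Whole nematodes of 10 groups, 3 biological replicates each, were measured by mRNA sequencing in 30 libraries. Per the submitters' processing notes, the authors used CASAVA 1.8.2, Trimmomatic 0.32, TopHat2 2.0.8 and Bowtie2 2.1.0 with the WBcel235 genome, and the deposited counts are raw numbers of reads per gene made with HTSeq. The version and strand setting of HTSeq are not given in the sources used here. Rows that name no gene were left out of library sizes and tests. Gene names, positions and exon lengths came from the Ensembl annotation of WBcel235, and mtDNA genes were named by position.

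Counts were scaled with TMM factors and genes under edgeR's default filter (a count of 10, a total of 15) were removed, which left 16048. A quasi-likelihood model with 1 mean per group was fitted over all 30 libraries (edgeR 4.0.16, R 4.3.3, robust, 20 residual degrees of freedom), as groups then share 1 estimate of the spread. Genes with a Benjamini-Hochberg adjusted p under 0.01 were called. The study's methods used DESeq and state no threshold, and 0.01 is the one it gives for its gene overlaps. Log2 fold changes are edgeR's model values with its default prior count. Each SE was derived from the test, as the absolute log2 fold change divided by the square root of the quasi-likelihood F value. A prior count of 2 was used only for the log2 levels behind the correlations of libraries and the length offset. The script was tested on simulated data for d4T against DMSO at 72h over 16048 genes, where 2.99%, 41.8% and 84.8% of genes changed by 1.5-fold, 2-fold and 4-fold were recovered. Lists are described by their counts and medians. Named genes were the 12 largest called changes and the 5 smallest adjusted p in each direction, up to 3 called members per list, fixed stress regulators and the mtDNA genes. Members and lists were chosen with earlier results of these data known. Alternatives were DESeq2 1.42.0, scaling by relative log expression or by library totals, no filter, a replicate block, the compared groups alone and each library left out. An offset on exon length, a spline with 5 degrees of freedom per library, was added after the data were seen.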

Additional observations from a re-analysis of the deposited data

Results flagged for a closer look

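Genes named above are given here where the effect of d4T against DMSO at 72h differed from that at 24h in the test of the difference itself (edgeR's quasi-likelihood test, adjusted p under 0.01), with the difference of the log2 fold changes, 72h minus 24h. They were chosen for their values at 72h, which the difference contains.

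Ribosomal protein genes had lower values at 72h, with -2.56 for rps-29, -2.39 for rpl-43, -2.22 for rpl-30, -2.202 for rps-10 and -1.93 for rps-27. Mitochondrial ribosomal proteins gave -1.61 for mrps-28, -1.51 for mrpl-17 and -1.81 for mrps-14. Nuclear genes of the respiratory chain gave -1.12 for ndua-12, -1.21 for sdhb-1, -0.74 for isp-1, -1.12 for cox-5A, -1.01 for cox-5B, -1.49 for cox-7C and -1.12 for atp-5, whereas COX1 of mtDNA gave 0.76. Other genes of mitochondria and nucleotides were tfbm-1 (-0.93), coq-6 (-0.90) and ndk-1 (-1.54). The redox enzymes sod-1, prdx-2 and prdx-6 gave -1.15, -0.94 and -1.39.

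The remaining genes with lower values at 72h were the sperm genes msp-50 (-5.46) and nspg-8 (-2.75), the muscle genes mlc-2 (-1.49), unc-27 (-1.21) and unc-87 (-0.996), pbs-1 of the proteasome (-1.25), the saposin spp-10 (-1.32), perm-2 (-1.94) and the cytochrome P450 gene cyp-14A2 (-2.16). ufm-1 gave -2.67, C14C6.5 -3.41, F01D5.5 -3.79, Y51A2D.8 -2.56 and the pseudogene WBGene00004817 -3.45.

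Genes with higher values at 72h included C09F9.2 (3.22), epic-2 (2.37), cdh-1 (2.02), frm-5.1 (1.77), sea-2 (2.33), gpb-1 (1.195), ell-1 (1.62), din-1 (1.82) and vha-5 (1.41). Of detoxification, ugt-17 gave 2.34, ugt-12 1.43, pgp-1 1.53 and pgp-2 0.998. Of the apical matrix, bli-3 gave 1.25, mlt-7 1.104 and ptr-23 1.21. hlh-30 (1.18) and epg-5 (1.56) of autophagy, fbxb-75 (2.97), sams-1 (1.69), atm-1 (1.197) and rpoa-1 (0.89) were also higher. K08D8.6 gave 0.75, F58G6.3 1.91, F58G6.7 1.799 and their neighbour chca-1 2.37.

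Outside the gene counts, reads on no gene were a mean of 0.719% of the reads with d4T at 72h (0.694 to 0.750%), above the 0.587 to 0.615% with DMSO. Reads aligned at several places were a mean of 9.81% with d4T (8.80 to 10.3%), above the 7.53 to 7.84% with DMSO, and 10.4 to 11.6% in unexposed nematodes.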

How the results depend on the processing

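Of 122 named genes 98 were called, and 59 kept the call under every alternative run. Without 1 library in turn, 348 to 528 genes were higher and 453 to 619 lower with d4T than with DMSO, so that each of the 6 libraries moved the counts by over 1.5 times, and 68 named genes kept the call without each of them. The compared groups alone gave 3023 and 3515, library totals 2367 and 508, DESeq2 1181 and 1680, and the length offset 422 and 1102. Against unexposed nematodes, DESeq2 gave 131 genes, the compared groups alone 1770 and single libraries left out 10 to 18. For the difference between the times, DESeq2 gave 1930, the compared groups alone 383 and single libraries left out 804 to 2415. The lowest were 804 without DMSO replicate 1 at 72h, 827 without d4T replicate 2 at 72h and 849 without DMSO replicate 1 at 24h. The cause of these shifts was not tested.

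Directions turned for some genes. On the log2 scale, the length offset gave -0.0024 for atm-1, -0.33 for cep-1, -0.25 for daf-16 and -0.076 for hif-1. For cep-1 DESeq2 and relative log expression scaling gave -0.044, the compared groups alone -0.018, and single libraries left out -0.094 to 0.063. Library totals gave 0.21 for pgp-1, 0.10 for skn-1 and 0.18 for polg-1, and single libraries left out gave -0.23 to 0.11 for pgp-1. With the length offset 21 called named genes lost the call.

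Same-numbered d4T and DMSO libraries had correlations of deviations of -0.046, -0.032 and -0.016, so that no pairing was seen in the values. Whether same-numbered cultures were grown together is not given in the sources used here. The replicate block gave 897 higher and 928 lower genes.

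In the simulated data 41.8% of 67 genes changed 2-fold were called, and 2.99% of 67 genes changed 1.5-fold. Far fewer genes were changed there than the 1875 called in the data, so that these shares need not hold for the data. The median fallen DEG was 1.90-fold lower, so that changes under 2-fold were called as well.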
